A study of Rattus norvegicus with 20 samples.

Results

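The genes described here are 31 genes of the oligodendrocyte lineage and of myelin, chosen by gene name, out of 32402 Ensembl genes in the rat supraoptic nucleus (SON). All 31 matched a single gene, and all had a mean normalized count of at least 10 in each comparison. They comprise 14 proteins of the myelin membrane and sheath, 8 enzymes and receptors, 2 genes of newly forming oligodendrocytes, 5 transcription factors and 2 markers of precursor cells.

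Oligodendrocytes arise from dividing precursor cells, pass through a brief newly formed stage and then wrap axons in myelin, a stack of membrane rich in cholesterol and galactolipids and held together by a few abundant proteins. SOX10, OLIG1 and OLIG2 establish the lineage, and MYRF then switches on the myelin genes. The SON holds the cell bodies of magnocellular neurons that secrete vasopressin and oxytocin, beside glia and vessels. The nucleus lies against the heavily myelinated optic chiasm.

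Poly(A) RNA from SON tissue of male Wistar Han rats was sequenced in 4 groups of 5 rats. Adult rats were 3 months old and aged rats 18 months old, and at each age rats were either euhydrated (EH, with free access to water) or dehydrated (DH). The sample labels give DH as 2 days, whereas the methods of the study give a longer period, so the length of DH is not certain. Values of single rats are listed in the order of their replicate numbers, which are 1, 2, 4, 5 and 6 in both EH groups, 1 to 5 in adult DH and 1, 2, 3, 5 and 6 in aged DH. Both sides of the SON were punched from brain slices with the optic chiasm as the landmark, so a punch holds neurons, glia, vessels and possibly neighbouring tissue. In such bulk tissue, fewer oligodendrocytes and less RNA per oligodendrocyte cannot be told apart.

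In the adult DH table whole reads could be recovered, and the rats had between 24268398 and 28491926 reads on genes. Markers of magnocellular neurons were abundant in all groups, with summed normalized counts of 10 genes between 215469 and 554648 per rat. Markers of Schwann cells, which make peripheral myelin, summed to between 1792 and 2374 for 9 genes per rat, of which Pmp22, which other cells also make, averaged 1327 to 1438. Of the defining markers, Ncmap averaged between 0.781 and 2.5 normalized counts per group, and 0 of 8 tested Schwann cell markers were DEGs in any comparison by limma (3 had an unadjusted p under 0.05 with age, 1 with adult DH and 0 with aged DH). Differentially expressed genes (DEGs) are those with a limma adjusted p (Benjamini-Hochberg over all genes tested) under 0.05, with no filter on the log2 fold change (LFC), which was taken on the scale of log2 of the normalized count plus 1.

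The stretches of 250 bases upstream of the start of 6 members are printed first, to set members that carry a MYRF word beside the 2 members with the largest decreases with age. Cnp, Mal, Mag and Opalin carry a word bound by MYRF, and Ugt8 and Fa2h carry none of the words searched. Sequences are those of RefSeq on assembly GRCr8, 5′ to 3′ on the strand of the gene. The expression files use the older assembly Rn6, so the positions apply to GRCr8 only. Capitals mark ACAAAG or ACAATG (SOX), CTGGCAC (MYRF) and CAGCTG (an E-box, the word of basic helix-loop-helix factors such as OLIG2), each also as its reverse complement. The E-box and the MYRF word can share letters where they adjoin.
Cnp (chr10:86011254-86011503, plus strand): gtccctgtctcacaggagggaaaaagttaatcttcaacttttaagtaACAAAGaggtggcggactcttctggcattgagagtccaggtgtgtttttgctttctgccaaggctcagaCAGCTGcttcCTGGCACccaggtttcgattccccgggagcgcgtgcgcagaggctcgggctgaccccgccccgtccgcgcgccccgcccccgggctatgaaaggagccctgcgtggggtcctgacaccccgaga
Mal (chr3:135341424-135341673, minus strand): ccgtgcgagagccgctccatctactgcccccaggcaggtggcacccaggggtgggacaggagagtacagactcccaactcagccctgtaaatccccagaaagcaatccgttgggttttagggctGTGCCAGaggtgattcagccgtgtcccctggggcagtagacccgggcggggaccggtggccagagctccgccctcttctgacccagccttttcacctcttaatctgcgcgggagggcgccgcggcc
Mag (chr1:95291045-95291294, minus strand): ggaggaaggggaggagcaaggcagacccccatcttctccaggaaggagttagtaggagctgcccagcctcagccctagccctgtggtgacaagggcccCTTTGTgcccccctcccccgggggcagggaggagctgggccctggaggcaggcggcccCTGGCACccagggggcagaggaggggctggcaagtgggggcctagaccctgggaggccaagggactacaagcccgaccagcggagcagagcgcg
Opalin (chr1:249858191-249858440, minus strand): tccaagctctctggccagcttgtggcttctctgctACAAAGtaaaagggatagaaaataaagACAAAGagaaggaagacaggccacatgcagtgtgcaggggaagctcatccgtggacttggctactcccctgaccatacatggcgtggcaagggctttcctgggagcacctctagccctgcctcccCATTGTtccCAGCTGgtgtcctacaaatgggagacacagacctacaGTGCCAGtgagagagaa
Ugt8 (chr2:217007168-217007417, minus strand): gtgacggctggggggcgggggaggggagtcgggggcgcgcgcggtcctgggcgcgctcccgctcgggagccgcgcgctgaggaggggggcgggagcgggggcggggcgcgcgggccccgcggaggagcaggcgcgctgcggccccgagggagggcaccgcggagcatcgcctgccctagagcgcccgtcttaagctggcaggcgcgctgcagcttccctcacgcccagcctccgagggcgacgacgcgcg
Fa2h (chr19:56273481-56273730, minus strand): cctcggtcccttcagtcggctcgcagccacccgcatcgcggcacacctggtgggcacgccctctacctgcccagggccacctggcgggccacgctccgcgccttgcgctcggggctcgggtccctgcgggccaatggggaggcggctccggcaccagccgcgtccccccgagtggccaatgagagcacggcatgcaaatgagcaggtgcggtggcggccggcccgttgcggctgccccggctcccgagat

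RefSeq held 24 such windows for 23 of the 31 members, with 2 for Mbp. Mog, Ermn, Bcas1, Enpp2, Car2, Myrf, Sox10 and Olig1 had none. The MYRF word was in 6 of the 24 windows (25%), those of Mag, Cnp, Mal, Opalin, Hapln2 and Olig2, and in 3.78% of all 33469 rat promoter windows of the same length. A SOX word was in 9 of 24 (37.5%), against 25.29% of all windows, and the E-box in 6 of 24 (25%), against 11.97%. These matches are a description of letters and not of binding. None of these words was in the windows of Ugt8, Fa2h, Cldn11, Tspan2, Qdpr, Pllp, Sirt2 and Pdgfra, which are DEGs with age, of Omg, Gpr37, Nkx6-2 and Cspg4, which are not, or in 1 of the 2 windows of Mbp.

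The first question is how these genes differ with age in rats with free access to water (aged EH against adult EH). The galactolipid enzymes Ugt8 and Fa2h and 7 of 14 proteins of the myelin sheath were lower in aged rats, while 0 of 5 lineage factors passed the test in limma (1 had an unadjusted p under 0.05). Of 31 members 11 were lower DEGs (3.3% of all 15369 genes tested were) and 1 was a higher DEG (2.69% of all genes). In direction alone, 24 were lower and 7 higher, with a median LFC of -0.18, against 0.00033 over all genes. The groups did not overlap for 8 members, 7 lower and 1 higher, as for 6.38% of all genes.

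The enzymes of galactolipid synthesis changed most. Ugt8, which adds galactose to ceramide to make galactosylceramide, had normalized counts of 3889, 3601, 3040.0, 4627 and 5171 in the adult EH rats and 2655, 2346, 2008, 2206 and 2431 in the aged EH rats. Every aged rat was below every adult rat, and the mean fell from 4066 ± 842 to 2329 ± 242 (SD, n = 5 each, LFC -0.78 ± 0.12 SE, limma adjusted p = 0.00193). Fa2h, which hydroxylates the fatty acids of these lipids, was at 1862, 1691, 1514, 2097 and 2347 in adult rats and 1262, 1111, 1101, 1022 and 1211 in aged rats. These groups did not overlap either (LFC -0.72 ± 0.099 SE, limma adjusted p = 0.00103).

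Qdpr moved the other way. It encodes dihydropteridine reductase, which regenerates tetrahydrobiopterin and is also made outside oligodendrocytes. It was at 6755, 5775, 6494, 5933 and 6606 in adult rats and 8914, 9251, 8051, 7746 and 8370.3 in aged rats, with all aged rats above all adult rats (LFC 0.42 ± 0.055 SE, limma adjusted p = 0.000707). Sirt2, a deacetylase found in myelin, was a lower DEG with overlapping groups, 5152 to 5757 against 5688 to 6362 (LFC -0.18 ± 0.038 SE, limma adjusted p = 0.0151). The other 4 members of this set did not pass. Their LFCs were -0.40 for Aspa (aspartoacylase), -0.20 for Gpr37 (an orphan receptor, limma adjusted p = 0.0519), -0.17 for Enpp2 (autotaxin) and -0.032 for Car2 (carbonic anhydrase).

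Of the 14 proteins of the myelin membrane and sheath, 7 were DEGs and all 7 were lower. Mal, a proteolipid of membrane traffic in myelin, was at 6308, 6182, 5712, 6729 and 6425 in adult rats and 4269, 3710.5, 3776, 3389 and 4509 in aged rats. The gap between the groups exceeded the range within either (LFC -0.68 ± 0.068 SE, limma adjusted p = 0.000113). Cldn11, the claudin of the tight junctions between myelin layers, was at 6484, 5908, 5259, 7645 and 6897 in adult and 4839, 3804, 3460.5, 4487 and 4340.5 in aged rats, again without overlap (LFC -0.62 ± 0.099 SE, limma adjusted p = 0.00298). Tspan2, a tetraspanin of the myelin sheath, was at 4932, 5339, 4611, 5068 and 5083 in adult and 3874, 3959, 3773, 3485 and 3751 in aged rats (LFC -0.41 ± 0.043 SE, limma adjusted p = 0.000158). All aged rats lay below all adult rats.

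Mog, a surface protein of the outermost myelin layer, was at 3677, 3241, 2916, 3530.4 and 3963 in adult rats and 2794, 2647, 2518, 2616 and 2831 in aged rats, with no overlap (LFC -0.36 ± 0.068 SE, limma adjusted p = 0.00739). Cnp, an enzyme of the cytoplasmic channels of myelin, fell with overlap of 1 aged rat and 1 adult rat (11691 to 14267 against 14099.9 to 17856, LFC -0.34 ± 0.066 SE, limma adjusted p = 0.00898). Mobp, a compact-myelin protein (LFC -0.37 ± 0.10 SE, limma adjusted p = 0.0473), and Pllp, the proteolipid plasmolipin (LFC -0.28 ± 0.077 SE, limma adjusted p = 0.0473), were close to the threshold. Mobp stayed a DEG only when adult EH rat 2 or 4 was left out, and its adjusted p reached 0.112 without 1 of the others. Pllp lost the call without aged EH rat 2, 4 or 5 or adult EH rat 1, 2, 5 or 6 (adjusted p up to 0.108).

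The best known myelin genes were lower without passing. Mbp (myelin basic protein), which fuses the inner faces of the membrane, was at 183276, 154574, 143002, 193467 and 209798 in adult and 166585, 134864, 138910.0, 133679 and 154280.0 in aged rats (LFC -0.27 ± 0.097 SE, limma adjusted p = 0.127). The groups overlapped, and 3 of the 5 aged rats lay below all adult rats. Mag, an adhesion protein next to the axon (LFC -0.22 ± 0.072 SE, limma adjusted p = 0.0991), and Opalin, a membrane protein of central myelin (LFC -0.18 ± 0.064 SE, limma adjusted p = 0.131), had the same direction. Ermn (ermin, LFC 0.053), Omg (oligodendrocyte myelin glycoprotein, LFC 0.0037) and Tmem63a (a mechanosensitive channel, LFC -0.13) did not pass, nor did Hapln2, a link protein at nodes of Ranvier, which was higher (LFC 0.17, limma adjusted p = 0.237).

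**Figure D1:**
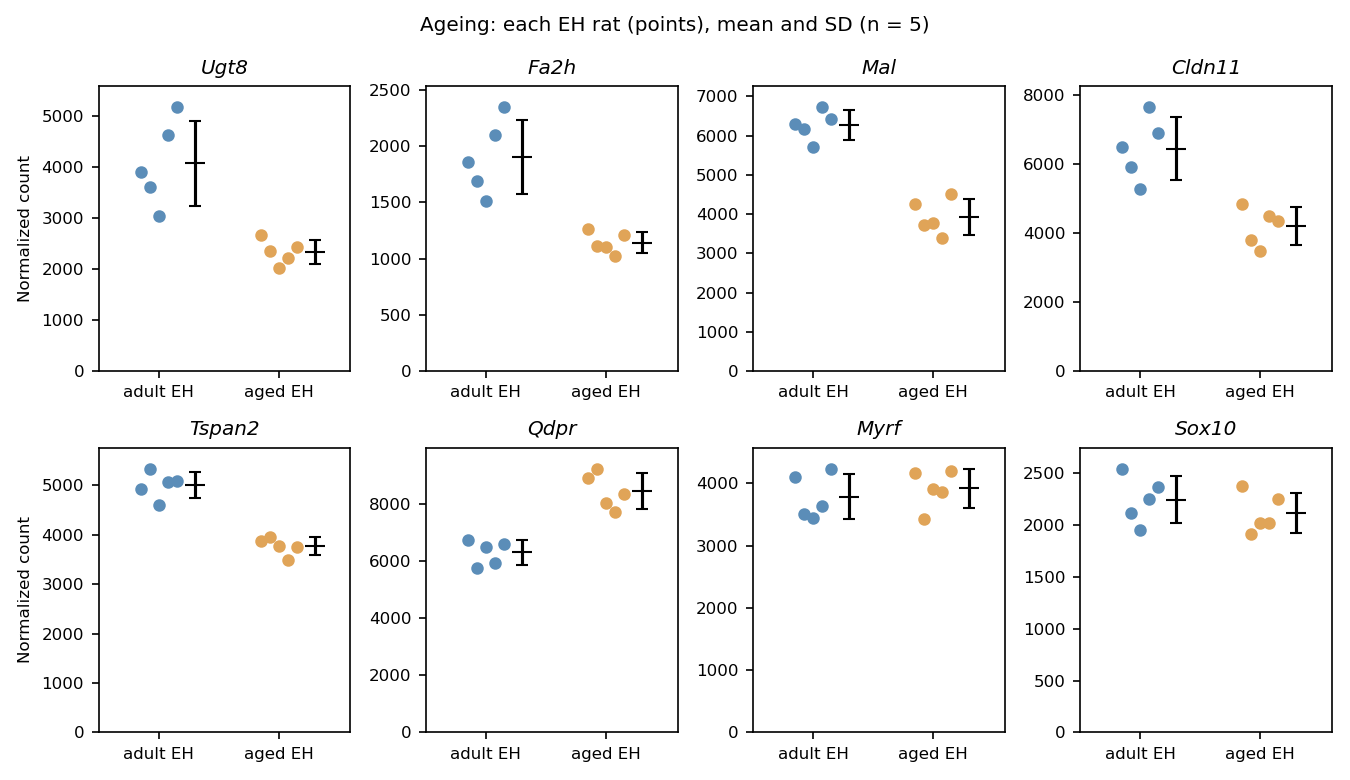
Normalized counts (vertical axis, starting at 0) of 8 members in the 5 adult EH and 5 aged EH rats, with a point per rat and the mean and SD at its right. Ugt8, Fa2h, Mal, Cldn11 and Tspan2 are lower in every aged rat and Qdpr is higher in every aged rat, whereas the groups of the transcription factors Myrf and Sox10 overlap.

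None of the 5 transcription factors was a DEG with age by limma, and 1 of them (Olig1) had an unadjusted p under 0.05. Myrf, the factor of myelin gene expression, was at 4101, 3505, 3452, 3636 and 4238 in adult rats and 4174, 3436, 3917, 3865 and 4203 in aged rats, with nearly the same range in both (LFC 0.051 ± 0.066 SE, limma adjusted p = 0.737, 95% interval -0.090 to 0.19). Sox10 (LFC -0.084 ± 0.072 SE, limma adjusted p = 0.582, 95% interval -0.24 to 0.070) and Olig2 (LFC -0.0055 ± 0.066 SE, limma adjusted p = 0.977, 95% interval -0.15 to 0.14) did not pass either. Olig1 (LFC -0.15) was lower and Nkx6-2, a homeobox factor of maturing oligodendrocytes (LFC 0.13), was higher. The interval of Sox10 leaves room for a decrease as large as that of Olig1 (LFC -0.152), and that of Olig2 (down to -0.148) for one nearly as large.

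The earlier stages of the lineage were mixed. Pdgfra, the receptor for the growth factor that keeps precursors dividing, was at 3948, 3375, 3833, 3499.8 and 3618 in adult rats and 3063, 3076, 2517, 3221 and 3297 in aged rats, without overlap (LFC -0.27 ± 0.066 SE, limma adjusted p = 0.0288). The call was lost without aged EH rat 2 or adult EH rat 1, 4 or 6 (adjusted p up to 0.069). Cspg4, the NG2 proteoglycan of precursors and pericytes, did not pass (LFC 0.048 ± 0.052 SE, limma adjusted p = 0.685). Nor did Bcas1 (LFC -0.011 ± 0.075 SE, limma adjusted p = 0.96) or Enpp6 (LFC -0.19 ± 0.18 SE, limma adjusted p = 0.637), the genes listed for newly formed oligodendrocytes. In adult EH rats Bcas1 averaged 9248 normalized counts and Enpp6 270. Whether Bcas1 is confined to that stage was not tested. Enpp6 had the widest 95% interval of the members (-0.58 to 0.21). The calls of the other 9 members that were DEGs with age held when any single rat was left out. With robust moderation and no trend in limma, the calls of Mobp (adjusted p = 0.14), Pllp (0.132), Pdgfra (0.0958) and Sirt2 (0.0617) were lost.

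Lower values with age were also found outside the 31. Of 36 other genes of mature oligodendrocytes 8 were DEGs, all lower (3.3% of all genes tested were), with a median LFC of -0.097 over the list. The list was mixed, with 24 genes lower and 12 higher, and LFCs reached 0.41. At an unadjusted p under 0.05 in limma, 15 were lower and 5 higher. The DEGs included Adamts4 (LFC -0.53 ± 0.086 SE, limma adjusted p = 0.00326), Gpr62 (LFC -0.51), Lpar1 (LFC -0.37), Gamt (LFC -0.35), Erbb3 (LFC -0.31), Sema6a (LFC -0.29) and Sema4d (LFC -0.27). Of 22 tested genes of precursors and committed precursors 5 were DEGs, all lower, and the list's median LFC was -0.11. Gpr17, a receptor of committed precursors, had the largest decrease among them (LFC -0.76 ± 0.093 SE, limma adjusted p = 0.000469), followed by Bmp4 (LFC -0.66), Traf4 (LFC -0.29), Sulf2 (LFC -0.24) and Tnr (LFC -0.18).

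Lipid synthesis followed the same direction. Of 18 genes that build the cholesterol, ceramides and fatty acids of myelin, 10 were lower DEGs and 0 were higher DEGs (none had an unadjusted p under 0.05 and a higher value), with a median LFC of -0.18. Those of cholesterol synthesis included Cyp51 (LFC -0.44 ± 0.060 SE, limma adjusted p = 0.000937), Hmgcs1 (LFC -0.41 ± 0.048 SE, limma adjusted p = 0.000324), Dhcr7 (LFC -0.26), Sqle (LFC -0.23) and Fdft1 (LFC -0.12). Elovl1 (LFC -0.38), Cers2 (LFC -0.26), Fads2 (LFC -0.23) and Fasn (LFC -0.13) make or desaturate long fatty acids and the ceramides that hold them. These enzymes are not particular to oligodendrocytes.

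Other cell types moved with age in the same punches. The summed counts of 11 meninges and fibroblast markers were 9434 to 16010 in aged EH rats and 23202 to 28648 in adult EH rats, 4 of the 8 tested were lower DEGs, and 3 of the 11 averaged under 10 counts in each group. Pdgfra and Cldn11 are also made by meningeal cells, and the part of these cells in their decrease was not tested. Microglia markers were 11788 to 13370 in aged and 10164 to 11427 in adult rats, with 4 of 10 higher DEGs and none under 10 counts. Astrocyte markers were 191630 to 225478 in aged and 191034 to 225017 in adult rats (3 of 10 lower DEGs), endothelial and pericyte markers 10739 to 12383 and 12205 to 14120 (2 of 7 lower DEGs), and magnocellular neuron markers 281328 to 401410 and 224244 to 319505 (6 of 10 higher DEGs). The part of these cell types in the results was not tested. According to the methods of the study, punching, RNA isolation and sequencing of both ages were done together.

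Within the set, the balance between members also shifted. When each member was expressed relative to the mean of the other 30 members in the same rat (log2), the 2 groups did not overlap for 12 members. Mog, Cnp, Mal, Cldn11, Ugt8 and Fa2h were relatively lower in all aged rats. Ermn, Hapln2, Omg, Qdpr, Myrf and Nkx6-2 were relatively higher in all aged rats. The largest shifts were -0.61 for Ugt8, -0.54 for Fa2h, -0.50 for Mal and 0.64 for Qdpr, with 0.26 for Myrf. This relative measure is a description, carries no test, and forces some members up when others go down. It was not taken for other genes, so no share over all genes stands beside the 12.

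**Figure D2:**
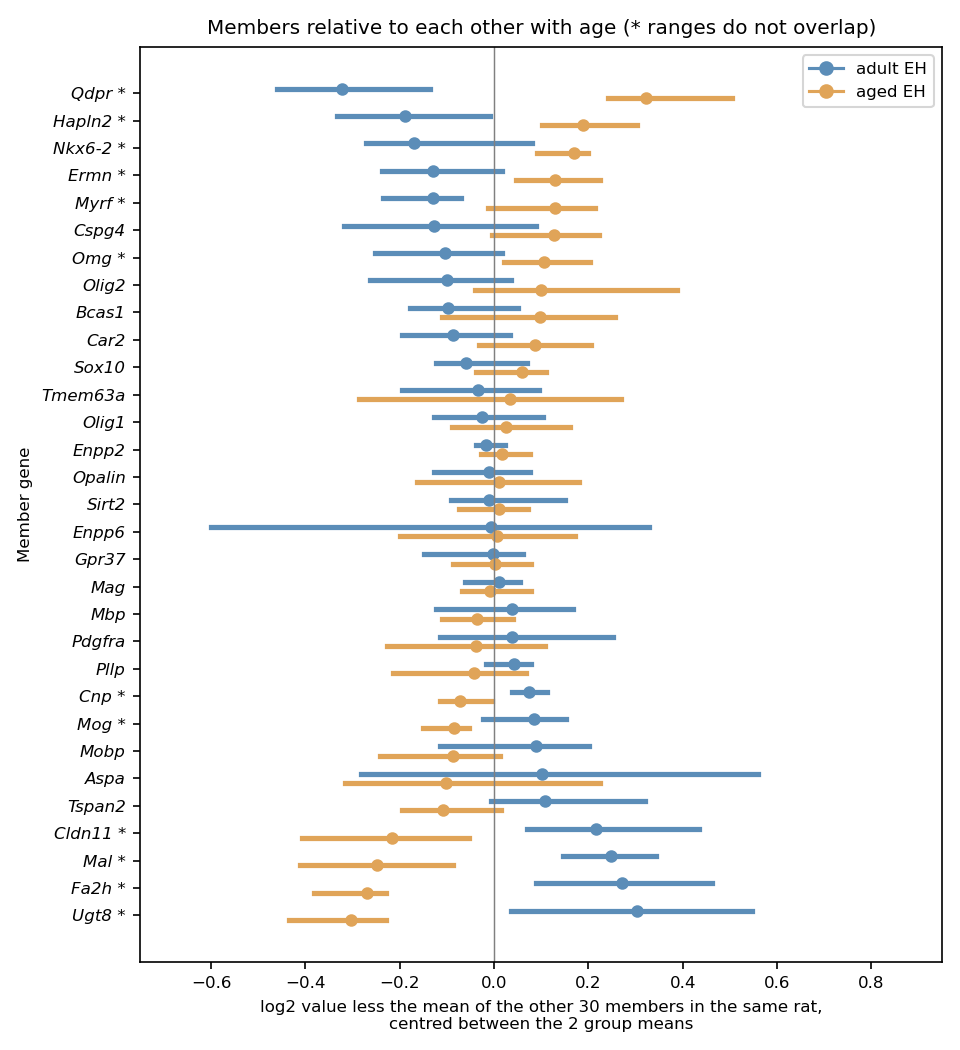
Each member's log2 value relative to the mean of the other 30 members in the same rat (horizontal axis, centred between the 2 group means), with the group mean as a point and the range over 5 rats as a bar, for adult EH and aged EH rats. The 12 members with an asterisk have ranges that do not overlap, from Ugt8 at the bottom (-0.61) to Qdpr at the top (0.64).

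The second question is how DH changes these genes in adult rats (adult DH against adult EH). LFCs ranged from -0.40 to 0.23, and most were decreases. Of 31 members 6 were lower DEGs (4.99% of all 15280 genes tested were) and 1 was a higher DEG (7.67% of all genes). By direction 23 were lower and 8 higher, with a median LFC of -0.11, against -0.0073 over all genes. The groups did not overlap for 2 members, both lower, as for 10.9% of all genes, so the share of members without overlap (2 of 31) was not above that of other genes. The adult EH rats are the same as in the ageing comparison, so the values of both comparisons rest on them.

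Pllp and Opalin showed the clearest decreases. Pllp was at 2751, 2504, 2297, 2776 and 2873 in EH rats and 1974, 2157, 1983, 2263 and 2037 in DH rats, and every DH rat was below every EH rat (LFC -0.34 ± 0.059 SE, limma adjusted p = 0.00219). Opalin was at 4207, 3922, 3687, 4085 and 4050.1 in EH rats and 3149, 3451, 3182, 3612 and 3370.5 in DH rats, again without overlap (LFC -0.25 ± 0.044 SE, limma adjusted p = 0.00224). Cnp was at 15896, 14304, 13503, 15337 and 17129.7 in EH and 11405, 14081, 11742, 13262 and 12626 in DH rats (LFC -0.27 ± 0.066 SE, limma adjusted p = 0.0169). Its highest DH rat lay above the lowest EH rat. These 3 calls held when any single rat was left out, and the number of members called fell from 7 to 3 or 4 without adult EH rat 1, 5 or 6 or adult DH rat 1 or 3. With robust moderation and no trend in limma, Pllp and Opalin alone stayed DEGs (Cnp, adjusted p = 0.0597). With a block for replicate number in limma, all 3 lost the call (adjusted p = 0.0543 for Pllp, 0.0578 for Opalin and 0.143 for Cnp). Adult EH rat 6 and adult DH rat 3 have no partner of the same number, so the block takes them out of the estimate. Cspg4 alone stayed a DEG with that block (limma adjusted p = 0.0412).

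The other calls depended on single rats. Bcas1, listed with newly formed oligodendrocytes, was at 10197, 8086, 8004, 8651 and 9421 in EH and 6446, 7957, 6795, 8684 and 7059.6 in DH rats (LFC -0.27 ± 0.082 SE, limma adjusted p = 0.0489). DH rat 4 lay above EH rats 2, 4 and 5. Bcas1 was no DEG without EH rat 1, 5 or 6 or DH rat 1, 3 or 5 (adjusted p up to 0.114), and the same rats decided the call of Enpp2 (LFC -0.24 ± 0.073 SE, limma adjusted p = 0.0482, up to 0.117). Qdpr fell here (4416 to 5912 against 5549 to 6482, LFC -0.24 ± 0.072 SE, limma adjusted p = 0.0462), and lost the call without EH rat 1, 4, 5 or 6 or DH rat 1, 2 or 3 (up to 0.112). Cspg4 was the higher DEG, at 999, 1015, 922, 861 and 942 in EH and 1181, 1096, 1048, 1222 and 999.5 in DH rats (LFC 0.23 ± 0.061 SE, limma adjusted p = 0.0275). DH rat 5 lay within the EH range. Cspg4 lost the call without EH rat 4, 5 or 6 or DH rat 1 or 4 (up to 0.0689). Cspg4 is also made by pericytes. Among 7 endothelial and pericyte markers, 0 were DEGs by limma (0 at an unadjusted p under 0.05), with sums of 11962 to 13781 in DH and 11711 to 13522 in EH rats. This list mixes both cell types, and the part of pericytes in the Cspg4 values was not tested.

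The members that fell most with age were not DEGs here. LFCs were -0.21 for Ugt8 (95% interval -0.46 to 0.045), -0.25 for Fa2h (-0.47 to -0.033), 0.085 for Mal (-0.072 to 0.24) and 0.0098 for Cldn11 (-0.18 to 0.20). Among the other myelin proteins, Mbp (LFC -0.17 ± 0.0999 SE, limma adjusted p = 0.292), Mog (LFC -0.19 ± 0.085 SE, limma adjusted p = 0.176) and Mag (LFC -0.16 ± 0.076 SE, limma adjusted p = 0.192) were lower and did not pass. The lowest LFC of all myelin proteins was -0.34 for Tmem63a, which did not pass, and Mobp was at 0.039. Enpp6 (LFC -0.40 ± 0.29 SE, limma adjusted p = 0.415) spread widely within both groups, from 114 to 332 in DH rats.

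None of the 5 transcription factors was a DEG with DH in adult rats by limma (Olig1 alone had an unadjusted p under 0.05, LFC 0.12). Myrf gave LFC 0.023 ± 0.090 SE, limma adjusted p = 0.905, Sox10 gave LFC -0.0998 ± 0.099 SE, limma adjusted p = 0.568 and Olig2 gave LFC 0.045 ± 0.048 SE, limma adjusted p = 0.598. Pdgfra did not pass (LFC 0.081 ± 0.052 SE, limma adjusted p = 0.343).

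Of the 36 other genes of mature oligodendrocytes 8 were DEGs, 7 lower and 1 higher, with a median LFC of -0.19. The lower ones were Ninj2 (LFC -0.40 ± 0.089 SE, limma adjusted p = 0.00964), Gjb1, the connexin of myelin (LFC -0.37), Gamt (LFC -0.34), Cdc42ep1 (LFC -0.26), Tppp (LFC -0.23), Dusp15 (LFC -0.23) and Sema4d (LFC -0.23). Nfasc, a cell adhesion protein of nodes and their borders that neurons also make, was higher (LFC 0.20 ± 0.036 SE, limma adjusted p = 0.00266). Of 22 precursor genes Nkx2-2 alone was a DEG (LFC -0.42), and of 18 lipid genes Hmgcs1 (LFC -0.25), Fads2 (LFC -0.21) and Scd2 (LFC -0.21) were lower DEGs.

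Markers of other cells also differed with DH in these punches. Magnocellular neuron markers summed to 316381 to 416933 in DH and 215469 to 306592 in EH rats, without overlap, and 7 of 10 were higher DEGs with a median LFC of 0.62 over the list. Blood markers summed to 6476 to 15843 in DH and 10330 to 21630 in EH rats, 2 of the 6 tested were lower DEGs, and 1 of 7 averaged under 10. Of 9 general neuron markers 1 was a higher and 1 a lower DEG, of 10 cortex and amygdala neuron markers 1 was lower, and of 8 tested meninges and fibroblast markers 1 was higher. None of the 10 astrocyte or 10 microglia markers was a DEG by limma (1 and 5 had an unadjusted p under 0.05). The part of these cell types in the members' values was not tested.

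The third comparison asks the same of aged rats (aged DH against aged EH). Here the members leaned upwards. Of 31 members 5 were higher DEGs (4.05% of all 15346 genes tested were) and 0 were lower DEGs by limma (3.25% of all genes, and 0 members were lower at an unadjusted p under 0.05). By direction 26 were higher and 5 lower, with a median LFC of 0.099, against -0.0030 over all genes. The groups did not overlap for 1 member, as for 7.05% of all genes. The aged EH rats are those of the ageing comparison, where they had the lower mean for 24 of the 31 members.

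Mobp was the member without overlap, at 13679, 10958, 11845, 13012 and 13507 in EH rats and 15083, 17957, 14161, 16911 and 16039 in DH rats (LFC 0.35 ± 0.070 SE, limma adjusted p = 0.00784). Leaving out any single rat did not end this call, whereas the number of members called fell from 5 to between 1 and 3 without aged EH rat 2, 4 or 5 or aged DH rat 1, 2, 5 or 6. With robust moderation and no trend in limma, Mobp alone stayed a DEG (adjusted p = 0.0462), and with scaling to library totals Mobp and Bcas1 did. Bcas1 was at 9621, 7684, 9616, 9028 and 9837 in EH and 9817, 11182, 10614, 12509.9 and 11684 in DH rats (LFC 0.29 ± 0.071 SE, limma adjusted p = 0.0261). Its groups overlapped through DH rat 1, and the call was lost without EH rat 5 or DH rat 2 or 5 (adjusted p up to 0.0706). Mal was at 4263, 3705, 3775, 3386 and 4481 in EH and 4244, 4503, 4564, 5175 and 4849.6 in DH rats (LFC 0.25 ± 0.071 SE, limma adjusted p = 0.0437). The groups overlapped through DH rat 1. Its call was lost without EH rat 2, 4 or 5 or DH rat 2, 3, 5 or 6 (up to 0.115).

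Qdpr was higher, at 8785 to 10024 in DH rats against 7739 to 9237 in EH rats (LFC 0.19 ± 0.050 SE, limma adjusted p = 0.0356), and lost the call without EH rat 4, 5 or 6 or DH rat 1, 2, 5 or 6 (up to 0.096). Olig1 was the only transcription factor among the DEGs, at 2028, 1856, 1883, 2132 and 2160.1 in EH and 2288, 2536, 2133, 2392 and 2288 in DH rats (LFC 0.21 ± 0.054 SE, limma adjusted p = 0.031), with groups that overlapped. It lost the call without EH rat 1, 2 or 4 or DH rat 1, 2 or 5 (up to 0.0795). The other 4 factors were all higher without passing, among them Myrf (LFC 0.12 ± 0.053 SE, limma adjusted p = 0.205), Sox10 (LFC 0.058 ± 0.055 SE, limma adjusted p = 0.61) and Olig2 (LFC 0.12 ± 0.073 SE, limma adjusted p = 0.377).

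Of the remaining myelin proteins, Mbp was at 166333, 134668, 138872, 133556 and 153301 in EH and 160465, 179988, 151418, 176099 and 162562 in DH rats and did not pass (LFC 0.20 ± 0.069 SE, limma adjusted p = 0.109), with groups that overlapped. Mog (LFC 0.099 ± 0.051 SE, limma adjusted p = 0.283), Mag (LFC 0.12 ± 0.062 SE, limma adjusted p = 0.288) and Opalin (LFC 0.030 ± 0.069 SE, limma adjusted p = 0.859) did not pass. The galactolipid enzymes that were lower with age did not pass, with LFCs of 0.036 for Ugt8 (95% interval -0.0996 to 0.17) and 0.12 for Fa2h (-0.016 to 0.25). Enpp6 (LFC -0.27 ± 0.18 SE, limma adjusted p = 0.429), Cspg4 (LFC -0.0026 ± 0.048 SE, limma adjusted p = 0.985) and Pdgfra (LFC -0.0070 ± 0.071 SE, limma adjusted p = 0.972) did not pass.

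In the other lists few genes passed. Nfasc was a higher DEG (LFC 0.16 ± 0.040 SE, limma adjusted p = 0.0309), the only one of 36 other genes of mature oligodendrocytes, whose median LFC was 0.049. Of 22 precursor genes, Tcf7l2 (1 of its 2 Ensembl genes, LFC 0.39) was higher and C1ql1 (LFC -0.30) lower, and of 18 lipid genes Hmgcs1 was lower (LFC -0.23 ± 0.048 SE, limma adjusted p = 0.00987).

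Other cell types also differed between these groups. Cortex and amygdala neuron markers summed to 7888 to 11707 in DH and 12999 to 20348 in EH rats, without overlap, and 6 of 10 were lower DEGs, none under 10 counts on average. Magnocellular neuron markers summed to 338130 to 554648 in DH and 279542 to 401300 in EH rats, and 5 of 10 were higher DEGs with a median LFC of 0.30. Blood markers summed to 7186 to 13099 in DH and 9219 to 22983 in EH rats, with a median LFC of -0.58, and 1 of 7 was a lower DEG (4 were lower at an unadjusted p under 0.05). Of 10 astrocyte markers 1 was a higher and 1 a lower DEG, and of 9 general neuron markers 2 were higher DEGs. The part of these cell types in the members' values was not tested.

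**Figure D3:**
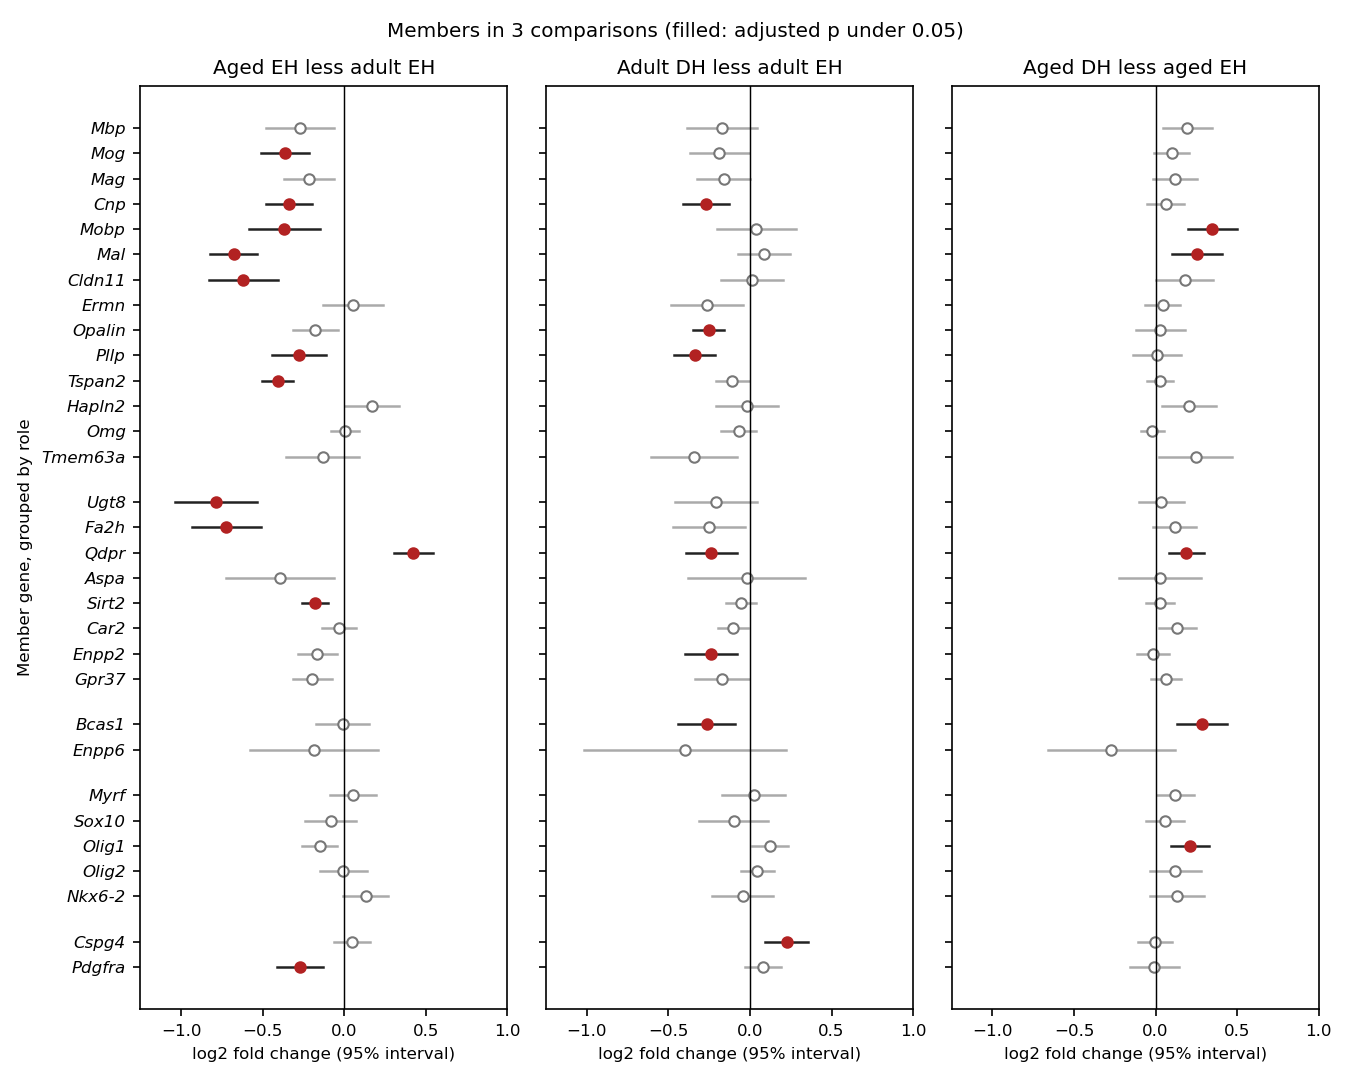
LFC (log2, horizontal axis) with its 95% interval for each of the 31 members, grouped by role from myelin proteins at the top to precursor markers at the bottom, in the ageing, adult DH and aged DH comparisons. Filled points are DEGs, 12 with age (11 lower), 7 with adult DH (6 lower) and 5 with aged DH (all higher).

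The study asks whether ageing alters the response to DH. Set side by side, 20 members were lower with DH in adult rats and higher with DH in aged rats, 6 were higher in both, 3 lower in both, and 2 higher in adult and lower in aged rats. These directions were not counted over all genes, and the members tended to be high or low in the same rats. The difference itself, aged DH less aged EH less the same in adult rats, was tested over all 20 rats. No member passed (0 of 31, and 0% of all 15326 genes tested). At an unadjusted p under 0.05 the difference was positive for 16 members and negative for 1, where 4.86% of all genes were positive, and its median over the members was 0.22, against -0.0015 over all genes. When 1 rat was left out, the count at an unadjusted p under 0.05 (17) ranged from 12, without adult EH rat 6 or adult DH rat 1, to 19, without adult DH rat 4.

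Bcas1 and Qdpr had the smallest p among the members and were DEGs in opposite directions at the 2 ages. The study had named both, from the same rats, as lower with DH in adult and higher with DH in aged rats. Their opposite directions are therefore not a separate finding. Bcas1 gave -0.27 in adult rats and 0.29 in aged rats, a difference in LFC of 0.55 ± 0.12 SE (95% interval 0.31 to 0.80, limma adjusted p = 0.188). Qdpr gave -0.24 and 0.19, a difference of 0.42 ± 0.094 SE (limma adjusted p = 0.188). Tmem63a, which was no DEG at either age, had the largest difference, 0.59 ± 0.18 SE (limma adjusted p = 0.272).

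Myelin proteins shared the sign, with differences of 0.37 for Mbp (limma adjusted p = 0.352), 0.29 for Mog (0.381), 0.28 for Mag (0.39) and 0.28 for Opalin (0.294). The factors Myrf (0.096, limma adjusted p = 0.832), Sox10 (0.16, 0.723) and Olig2 (0.075, 0.839) gave smaller values, and 0 of the 5 factors had an unadjusted p under 0.05. Enpp6 was at 0.13 (0.945). The precursor markers were the 2 members with negative differences, -0.23 for Cspg4 (limma adjusted p = 0.331) and -0.088 for Pdgfra (0.815). Of the 36 other mature oligodendrocyte genes 33 had a positive difference, with a median of 0.21 and 0 DEGs by limma (15 at an unadjusted p under 0.05).

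**Figure D4:**
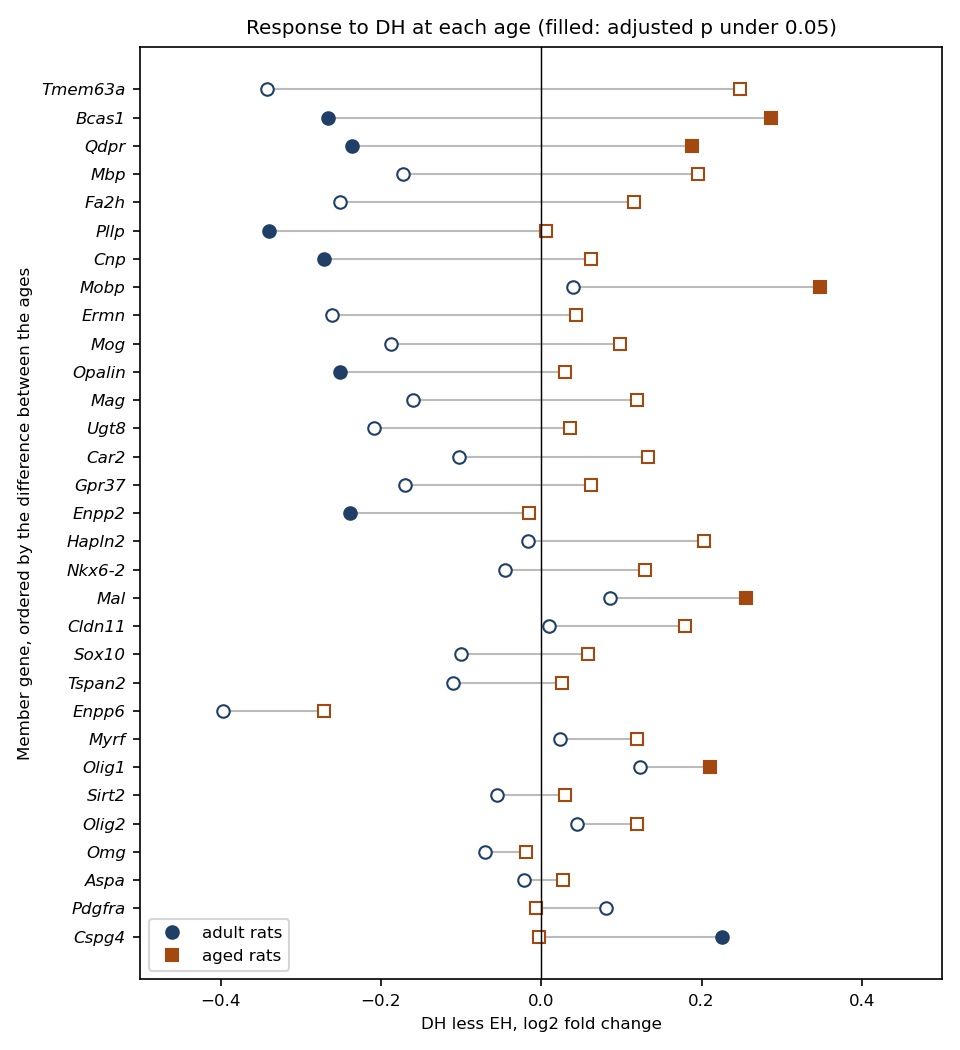
LFC of DH against EH (log2, horizontal axis) for each member in adult rats (circles) and aged rats (squares), ordered by the difference between the ages from the top; filled marks are DEGs within that age. Tmem63a, Bcas1 and Qdpr lie at the top with decreases in adult and increases in aged rats, and Pdgfra and Cspg4 at the bottom have the opposite order, while no difference passed the test.

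Within a group, the members tended to be high or low in the same rats. In adult EH, rat 6 had the highest value for 17 of the 31 members and rat 4 the lowest for 23. In adult DH, rat 4 was highest for 24 and rat 1 lowest for 20. In aged EH, rat 1 was highest for 18 and rat 5 lowest for 12, and in aged DH, rat 2 was highest for 14 and rat 3 lowest for 16. The 31 members therefore do not count as 31 separate observations of a group.

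The share of all normalized counts that fell on the members also varied between rats. Mbp, which was not a DEG in any comparison, made up most of it in every rat, so this share mainly follows Mbp. For example, Mbp took 0.518% of counts in adult EH rat 4 and 0.762% in adult EH rat 6. The share of all members ranged from 0.973 to 1.32% in adult EH, 0.888 to 1.11% in adult DH, 0.896 to 1.06% in aged EH and 0.971 to 1.14% in aged DH rats. Means were 1.16% ± 0.146, 1.02% ± 0.0949, 0.952% ± 0.0763 and 1.06% ± 0.0628 (SD, n = 5), in that order, and neighbouring groups overlapped. The median residual SD of the members was 0.13, 0.15 and 0.12 (log2) in the ageing, adult DH and aged DH comparisons, against 0.11 over all genes in each. No measure of the myelinated tissue held in each punch was at hand.

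**Figure D5:**
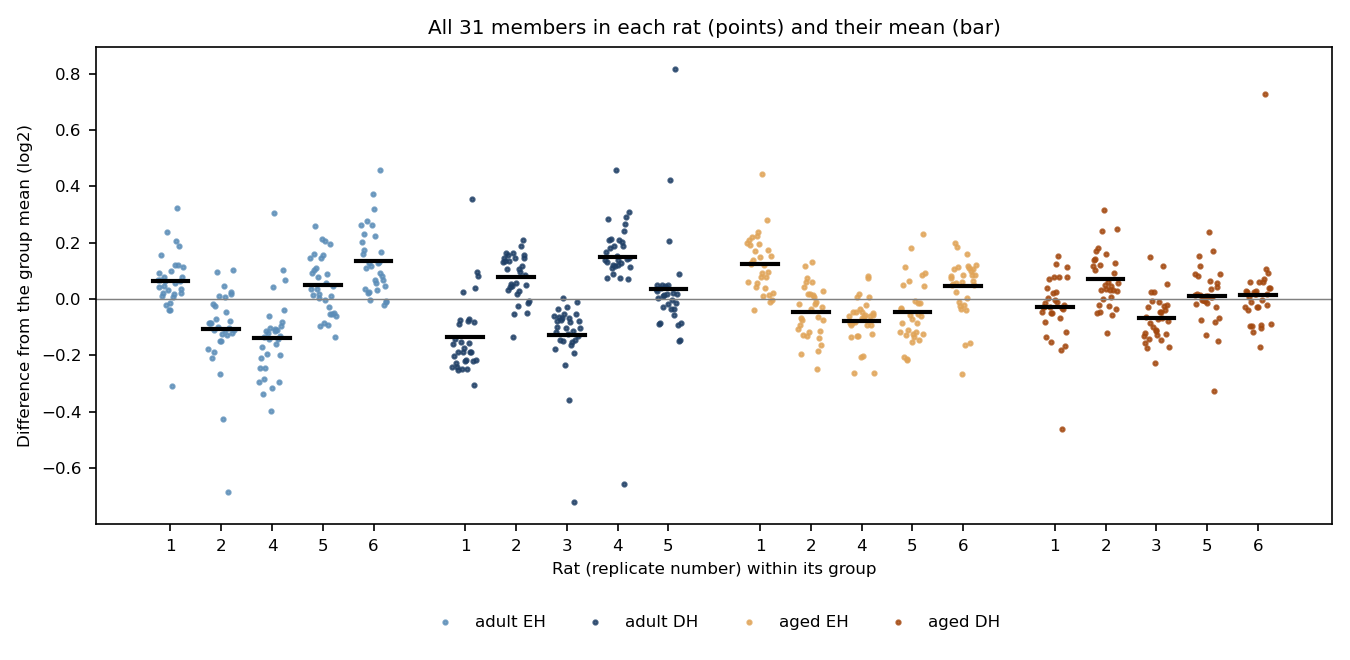
Difference of each member from its group mean (log2, vertical axis) in each of the 20 rats, in 4 groups of 5, with a point per member and a bar at the mean of the 31. In adult EH rat 4 (mean -0.14) only 4 of the 31 members are above their group mean, in adult EH rat 6 (0.14) 27, in adult DH rat 1 (-0.13) 5 and in adult DH rat 4 (0.15) 30.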

How the data were processed

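The authors sequenced stranded poly(A) libraries from SON punches of 20 rats, and ran STAR against Rn6 followed by featureCounts per gene. Their versions were not given in the sources used here. Each deposited signal is a read count scaled by a DESeq2 size factor, which the authors estimated separately in each of 3 tables. All 30 per-sample columns were used. The authors' fold changes and p-values, also in the tables, were not used.

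Genes with a mean of at least 10 were tested on log2(value + 1) with limma 3.58.1 (R 4.3.3), moderation following the mean, with two-sided p-values adjusted by the Benjamini-Hochberg method across every tested gene at a threshold of 0.05. The difference between the ages used all 20 rats, each from the DH table of its age. For the adult DH table, 100% of values came out as whole reads within 0.1 read, and edgeR 4.0.16 and DESeq2 1.42.0 were run as alternatives, edgeR calling 1936 genes and DESeq2 2243. Full statistics are given for member DEGs and for Mbp, Mog, Mag, Opalin, Myrf, Sox10, Olig2, Bcas1, Enpp6, Cspg4 and Pdgfra, and genes of other lists are named where called, apart from a few that are not reported here. Members and lists were chosen with earlier results of these data known. The scripts were tested on simulated data. Figures were drawn with matplotlib 3.10.9.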

Additional observations from a re-analysis of the deposited data

Results flagged for a closer look

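In 3 of 128 groups examined (31 members and their mean, in 4 groups of 5 rats), 1 rat lay far from the other 4, with a gap to the nearest rat over 0.71 of the group's range (Dixon's test at 95%). Chance alone gives about 1 in 20. Car2 was at 4497 normalized counts in adult EH rat 4, where the other 4 rats were at 4893 to 5054. Pdgfra was at 2516 in aged EH rat 4, where the others were at 3058 to 3276. Qdpr was at 8785 in aged DH rat 3, where the others were at 9679.9 to 10024.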

How the results depend on the processing

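Pseudocounts, filters, scalings, moderation, a replicate block and leaving out each rat were tried, 1 at a time. Single values were followed for the members called in a comparison and for those given full statistics in every comparison. Over these alternatives, 29 of the values followed changed direction, none of them for a member called in that comparison. Changes of direction in the other members were not counted. A call was lost 26 times with age, 39 times in adult DH and 33 times in aged DH, and 6 values gained one. The cause was not tested. With age, 12 members were called and 8 to 15 under the alternatives (9 to 15 without 1 rat). In adult DH, 7 were called, 4 without the filter on low values, 2 with robust moderation without a trend and 3 to 8 without 1 rat, and edgeR called 6 and DESeq2 7. In aged DH, 5 were called, 4 without the filter, 2 with scaling to library totals, 1 with robust moderation and 1 to 5 without 1 rat. For the difference between the ages 0 members were called under every alternative run. Over all genes, calls numbered 921 with age (489 with robust moderation and 594 without adult EH rat 5), 1934 in adult DH (1389 with robust moderation), 1119 in aged DH (658 with robust moderation and 679 without aged EH rat 5) and 0 for the difference (up to 5 without aged EH rat 6).

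Reversed LFCs belonged to members that were not called. They were small apart from the difference between the ages for Enpp6, at -0.18 with the replicate block and 0.13 in the main run. Olig2 with age was 0.0016 with upper quartile scaling, and Myrf in adult DH was -0.0032 with library totals. Without 1 rat, Bcas1 with age was -0.046 to 0.051, Olig2 with age -0.063 to 0.035, Myrf in adult DH -0.044 to 0.078, Opalin in aged DH -0.024 to 0.076, Cspg4 in aged DH -0.022 to 0.019, Pdgfra in aged DH -0.072 to 0.035 and the difference between the ages for Enpp6 -0.055 to 0.33.

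Whether rats of the same replicate number belong together is not stated in the labels. Correlations of same-numbered rats were -0.048 to 0.12 with age, -0.083 to 0.13 in adult DH and -0.062 to 0.16 in aged DH. In each comparison 1 rat correlated best with its own number. So few pairs cannot exclude a shared factor. In adult DH, EH rat 6 and DH rat 3 have no partner of the same number. The same holds in aged DH for EH rat 4 and DH rat 3. The replicate block takes these rats out of the DH comparisons and of the difference between the ages. There its results do not separate pairing from fewer rats. With the replicate block, 15 members were called with age, 1 in adult DH (987 genes in all) and 3 in aged DH (653 genes in all), Opalin in aged DH was -0.018, Cspg4 in aged DH 0.0023 and the difference between the ages for Enpp6 -0.18. For that difference the block left 8 members in place of 17 at an unadjusted p under 0.05, with a median of 0.15. edgeR and DESeq2 were not run for ageing and aged DH, where whole reads could not be recovered. Recovered depth is known for adult rats only.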
